A study of Homo sapiens with 16 samples.

Results

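The IFIT family (interferon-induced proteins with tetratricopeptide repeats) was followed across LNCaP cells, an androgen-sensitive human prostate cancer line, after siRNA against SLIRP. The members IFIT1, IFIT2, IFIT3 and IFIT5 were taken by symbol, and they are 4 of the 20531 entries of the deposited count table. They were picked because earlier results of these data showed interferon-stimulated genes lower after SLIRP siRNA, so for the members the difference between siRNAs is given as a description, with counts of calls and no p. The responses to androgen, and the difference between the changes in vehicle and in androgen, did not enter that choice, and their tests are reported. Cells were transfected with 40 nM of a nonsense siRNA (NS) or of a pool of siRNAs against SLIRP for 24 h and then held in serum-free medium for another 24 h. During that time they received vehicle or 1 nM dihydrotestosterone (DHT), an androgen. Vehicle-treated cells form the groups NS-Veh and SLIRP-Veh, and DHT-treated cells NS-1nM DHT and SLIRP-1nM DHT. Each group has 4 libraries, sequenced as 50-base single reads. All cells were transfected and 1 cell line was used, so a level raised by the NS siRNA and a level lowered by the SLIRP siRNA cannot be told apart.

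IFIT proteins are cytoplasmic proteins built from helical repeats, and they are among the genes that interferons induce most strongly. Interferon binding to its receptor activates the kinases JAK1 and TYK2. The transcription factor complex formed downstream, which contains STAT2 and IRF9, binds the interferon-stimulated response element in promoters. IFIT1 binds RNA whose 5′ cap lacks the methyl group that marks host mRNA and keeps it from being translated. IFIT2 and IFIT3 form complexes with IFIT1, and IFIT3 stabilizes it. IFIT5 binds RNA with a 5′ triphosphate. SLIRP is an RNA-binding protein that binds the steroid receptor RNA activator and is abundant in mitochondria.

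The 4 genes lie side by side on the plus strand of chromosome 10, within 118952 bases of hg19 that also hold IFIT1B, and each has a canonical transcript of 2 exons. In order along the chromosome, these transcripts were IFIT2 (Entrez 3433) at chr10:91061803-91069028, IFIT3 (3437) at chr10:91087754-91100725, IFIT1B at chr10:91137813-91144962, IFIT1 (3434) at chr10:91152380-91166244 and IFIT5 (24138) at chr10:91174325-91180754. The LIPA locus on the opposite strand spans all of these genes except IFIT5. None of the 5 canonical transcripts shared exon bases with another locus, and whether the counting used strand is not given in the sources used here. IFIT1B had 0 counts in all 16 libraries.

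The promoters of the 3 members with an entry in the RefSeq table (GRCh38.p14), IFIT1, IFIT3 and IFIT5, were searched for the core of the interferon-stimulated response element, since the members are neighbours and interferon is known to induce them. The core was written as GAAA, any 2 bases and GAAA, on either strand, in the 250 bases before and 50 bases after a gene's start. IFIT1 held 2 cores, each of the 2 IFIT3 starts held 2, and IFIT5 held 3, whereas IFIT1B held 0. Of 35116 promoters of the same length, 3.57% held a core, 0.259% held at least 2 and 0.0370% held at least 3. All 9 cores read as TTTC, 2 bases and TTTC on the plus strand, and 3 of the 5 different cores occurred more than once. Only 2 of the 10 bases of a core were free to vary, so repeats can follow from how it was written. The share of repeats among other promoters is not given. The 7 windows of 30 bases below show the cores that recurred, grouped by core and given on the plus strand, with the core in capitals.
IFIT1, chr10:91152254-91152283: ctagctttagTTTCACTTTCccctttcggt
IFIT3 start 1, chr10:91087622-91087651: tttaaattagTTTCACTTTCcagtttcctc
IFIT3 start 2, chr10:91092225-91092254: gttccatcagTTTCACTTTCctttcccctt
IFIT1, chr10:91152267-91152296: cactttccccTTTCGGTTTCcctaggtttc
IFIT5, chr10:91174270-91174299: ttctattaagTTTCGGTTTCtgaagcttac
IFIT3 start 2, chr10:91092182-91092211: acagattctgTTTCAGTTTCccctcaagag
IFIT5, chr10:91174311-91174340: atttcttaagTTTCAGTTTCtgagcgctcg

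Of the 3 cores of IFIT5, 2 were also found in IFIT1 or IFIT3. The cores of IFIT5 lay nearest to the start, the last of them across it, from base -4 to base 5 with the start counted as 0. Those of IFIT1 began 116 and 103 bases before the start. A gamma-activated site, written as TTC, 3 bases and GAA, was in none of these promoters and in 7.66% of all. A match of letters is a description and not a bound site.

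**Figure D1:**
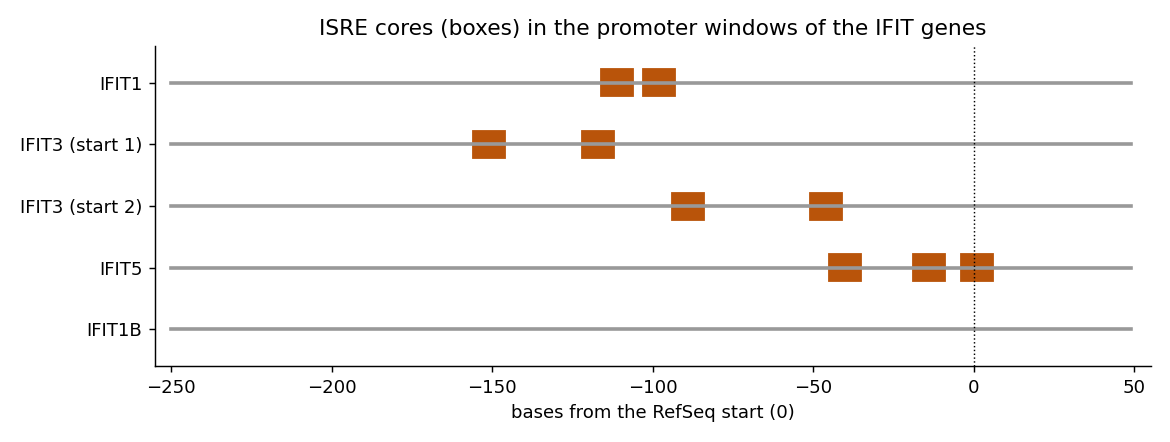
Positions of the interferon-stimulated response element cores (boxes) in the promoter windows of the IFIT genes, in bases from the RefSeq start at 0, 1 row per start. IFIT1 and each IFIT3 start hold 2 cores, IFIT5 holds 3 close to its start, and IFIT1B holds 0.

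The 16 libraries held 436353 to 1689708 counts. SLIRP, listed under its older symbol C14orf156, was at 45.1 to 63.4 CPM (read counts made comparable between libraries by their TMM-adjusted totals) in the NS libraries and at 1.41 to 8.04 CPM, or 1 to 10 counts, in the SLIRP siRNA libraries. All 9 luminal prostate markers examined were detected, while PTPRC, CD3E, PECAM1 and KRT5, 4 of 6 markers of other cells, were at 0 in every library. The summed level of the 9 prostate markers was 4065 to 4297 CPM in NS-Veh against 2972 to 3120 in SLIRP-Veh, and 4109 to 4688 in NS-1nM DHT against 3266 to 3626 in SLIRP-1nM DHT, and its part in the results below was not tested. By edgeR at an FDR of 0.01, 5 of these markers were lower and 1 higher after SLIRP siRNA in vehicle, and 5 were lower and 3 higher in DHT. FOLH1, the most abundant of them, was at 2100 CPM in NS-Veh and 1319 CPM in SLIRP-Veh, and KLK3, the 1 higher in vehicle, was at 39.5 and 96.6 CPM. The summed level of the 6 other markers was 13.7 to 24.02 CPM in NS-Veh, 12.4 to 21.9 in SLIRP-Veh, 7.34 to 16.5 in NS-1nM DHT and 5.64 to 15.3 in SLIRP-1nM DHT, most of it from COL1A1.

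IFIT1 had the largest difference between the siRNAs in vehicle among the 4 members. Its level in NS-Veh replicates 1 to 4 was 114, 88.1, 114 and 67.5 CPM, and in SLIRP-Veh 5.92, 3.13, 8.07 and 4.38 CPM. With DHT the NS libraries were at 166, 133, 122 and 73.9 CPM and the SLIRP siRNA libraries at 5.22, 7.05, 5.83 and 4.83 CPM. The groups did not overlap, and the lowest NS library was 8.36 times the highest SLIRP siRNA library in vehicle and 10.5 times in DHT. The mean was 96.0 ± 22.7 CPM (SD, n = 4) in NS-Veh against 5.38 ± 2.13 in SLIRP-Veh, and 124 ± 38.0 in NS-1nM DHT against 5.73 ± 0.972 in SLIRP-1nM DHT. In the fitted model IFIT1 was 17.1-fold lower in vehicle, a log2 fold change of -4.10 with an SE of 0.30, and 21.3-fold lower in DHT, -4.41 with an SE of 0.28. SEs here and below were derived from edgeR's F statistic, and DESeq2, another count model, gave 0.37 for IFIT1 in vehicle and in DHT. The SLIRP siRNA values rest on 2 to 10 counts per library, so IFIT1 remained just detectable there. Because the RNA came from whole cultures, fewer cells expressing a gene and less RNA per cell cannot be told apart.

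IFIT2 kept more of its level than IFIT1. It stood at 102, 104, 105 and 66.6 CPM in NS-Veh replicates 1 to 4 and at 24.9, 23.5, 13.5 and 17.5 CPM in SLIRP-Veh. In DHT it stood at 161, 145, 111 and 83.4 CPM with NS and at 10.4, 16.9, 17.5 and 14.5 CPM with SLIRP siRNA. Again no SLIRP siRNA library reached an NS library, with 24.9 CPM as the highest of the former and 66.6 CPM as the lowest of the latter in vehicle. The group means were 94.5 ± 18.6 and 19.8 ± 5.31 CPM in vehicle, and 125 ± 34.9 and 14.8 ± 3.21 CPM in DHT (SD, n = 4). The fitted log2 fold change was -2.16 (SE 0.22) in vehicle, or 4.48-fold lower, and -3.04 (SE 0.22) in DHT, or 8.24-fold lower.

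IFIT3, the partner that stabilizes IFIT1, lay between these members. NS-Veh replicates 1 to 4 gave 94.1, 69.5, 62.8 and 46.6 CPM, and SLIRP-Veh gave 6.51, 7.83, 5.38 and 10.5 CPM. NS-1nM DHT gave 108, 87.9, 64.4 and 56.3 CPM, and SLIRP-1nM DHT gave 3.91, 15.5, 3.88 and 2.41 CPM. The groups were separate under both treatments, although SLIRP-1nM DHT replicate 2 stood far above the other 3 libraries of its group. The means were 68.2 ± 19.7 and 7.56 ± 2.21 CPM in vehicle and 79.2 ± 23.4 and 6.43 ± 6.09 CPM in DHT (SD, n = 4). IFIT3 was 8.30-fold lower in vehicle, a log2 fold change of -3.05 (SE 0.31), and 13.6-fold lower in DHT, -3.76 (SE 0.32). Without that replicate the value in DHT was -4.52. The 3 low libraries held 3 or 4 counts each, and the fourth held 11.

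IFIT5 had the smallest difference between the siRNAs among the 4 members. It was at 20.01, 16.2, 21.8 and 16.9 CPM in NS-Veh replicates 1 to 4 and at 17.2, 10.96, 13.5 and 17.5 CPM in SLIRP-Veh, so the groups overlapped. In DHT it was at 28.3, 18.5, 34.8 and 18.3 CPM with NS and at 13.0, 8.46, 17.5 and 14.5 CPM with SLIRP siRNA. There the groups did not overlap, but only 17.5 CPM against 18.3 CPM separated the nearest libraries. The means were 18.7 ± 2.64 and 14.8 ± 3.14 CPM in vehicle, and 25.0 ± 8.06 and 13.4 ± 3.76 CPM in DHT (SD, n = 4). The log2 fold change was -0.30 (SE 0.28) in vehicle and -0.83 (SE 0.26) in DHT, or 1.23-fold and 1.77-fold lower. In 4 SLIRP siRNA libraries, replicates 3 and 4 of both treatments, IFIT5 and IFIT2 had equal counts (10 and 20 in vehicle, 18 and 18 in DHT), and whether reads were shared between the genes was not tested.

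**Figure D2:**
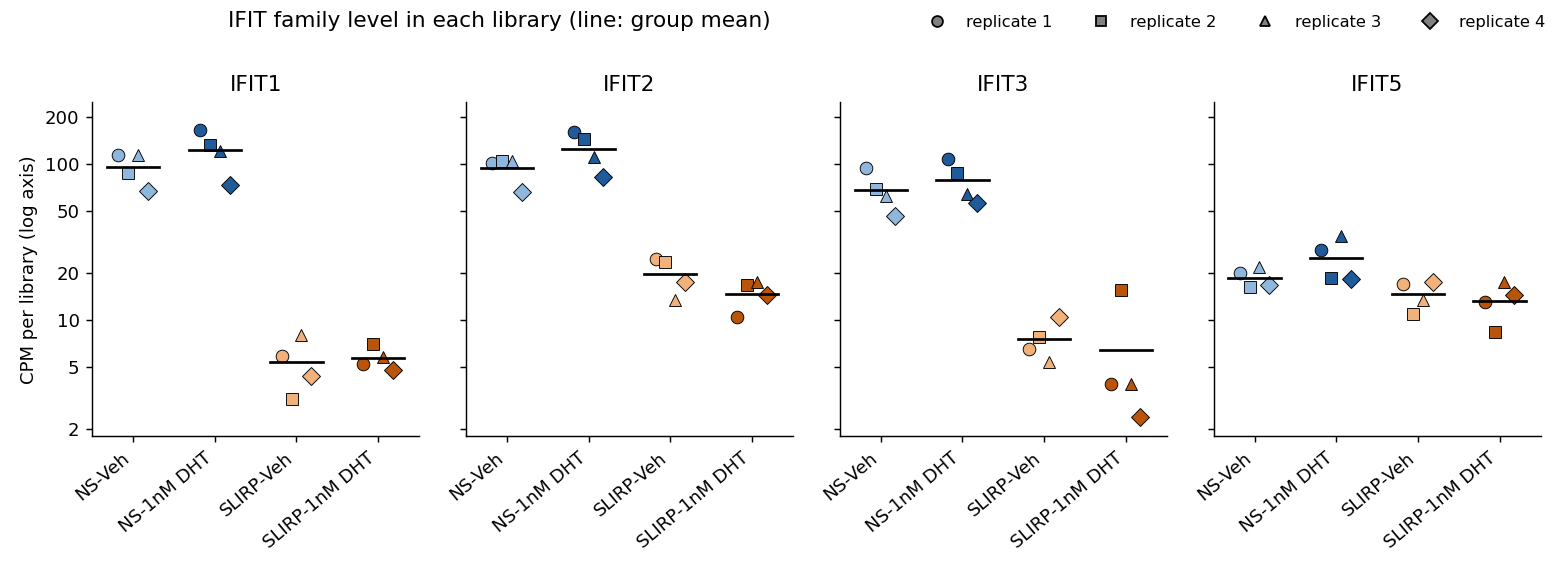
CPM of each IFIT member in each of the 16 libraries on a log axis, by group, with a symbol for each replicate number and a line at the group mean. The SLIRP siRNA libraries lie below all NS libraries for IFIT1, IFIT2 and IFIT3, while IFIT5 lies between 8.46 and 34.8 CPM in all groups.

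With edgeR's quasi-likelihood test at a Benjamini-Hochberg FDR of 0.01 over all genes, 3 of the 4 members were called lower in vehicle, where 9.95% of all 10684 genes tested were called lower. In DHT 3 of 4 were called lower, against 11.6% of all genes, and with vehicle and DHT together 3 of 4, against 17.4% of 10167 genes. IFIT5 was the member not called in each case. All SLIRP siRNA libraries were below all NS libraries for 3 of 4 members in vehicle and for 4 of 4 in DHT, and for 14% and 16.4% of all genes. The members were chosen on this contrast, so these counts only describe them.

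The members also changed places within the family. Levels were compared between genes only per kilobase of canonical transcript, which is 4302 bases for IFIT1, 3393 for IFIT2, 2390 for IFIT3 and 4029 for IFIT5. In NS-Veh IFIT3 was at 28.5 ± 8.26 CPM per kb, IFIT2 at 27.9 ± 5.49, IFIT1 at 22.3 ± 5.27 and IFIT5 at 4.65 ± 0.654 (SD, n = 4), and the ranges of the first 3 overlapped. In SLIRP-Veh the order was IFIT2 at 5.84 ± 1.57 CPM per kb, IFIT5 at 3.67 ± 0.780, IFIT3 at 3.16 ± 0.925 and IFIT1 at 1.25 ± 0.495, and IFIT5 and IFIT3 differed by less than their SDs. With DHT IFIT2 came first under both siRNAs, at 36.9 CPM per kb in NS-1nM DHT and 4.37 in SLIRP-1nM DHT. With the union of all annotated exons as the length, IFIT3 came to 13.5 CPM per kb in NS-Veh. That was below IFIT2 at 21.8 and IFIT1 at 20.8, so the place of IFIT3 depends on the length used.

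IFIT5, the least abundant member in NS cells, held 5.71% ± 1.09 of the summed family level per kb in NS-Veh and 6.13% ± 2.13 in NS-1nM DHT. In SLIRP siRNA cells it held 26.4% ± 4.39 in vehicle and 29.97% ± 10.8 in DHT (SD, n = 4). IFIT1 went the other way, from 26.7% ± 2.28 and 27.1% ± 1.97 in NS cells to 9.33% ± 4.92 and 11.5% ± 1.16. IFIT2 took 33.6% and 35.2% in NS cells and 41.7% and 37.6% in SLIRP siRNA cells. Its share was the largest in NS-1nM DHT and in both SLIRP siRNA groups. In NS-Veh the share of IFIT3 was the largest, but it and that of IFIT2 differed by less than their SDs. These shares use the canonical length, and the place of IFIT3 depends on that choice. The summed CPM of the 4 members was 277 ± 57.4 in NS-Veh against 47.5 ± 6.05 in SLIRP-Veh, and 353 ± 97.1 in NS-1nM DHT against 40.4 ± 7.16 in SLIRP-1nM DHT, or between 25 and 92 counts in a SLIRP siRNA library.

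**Figure D3:**
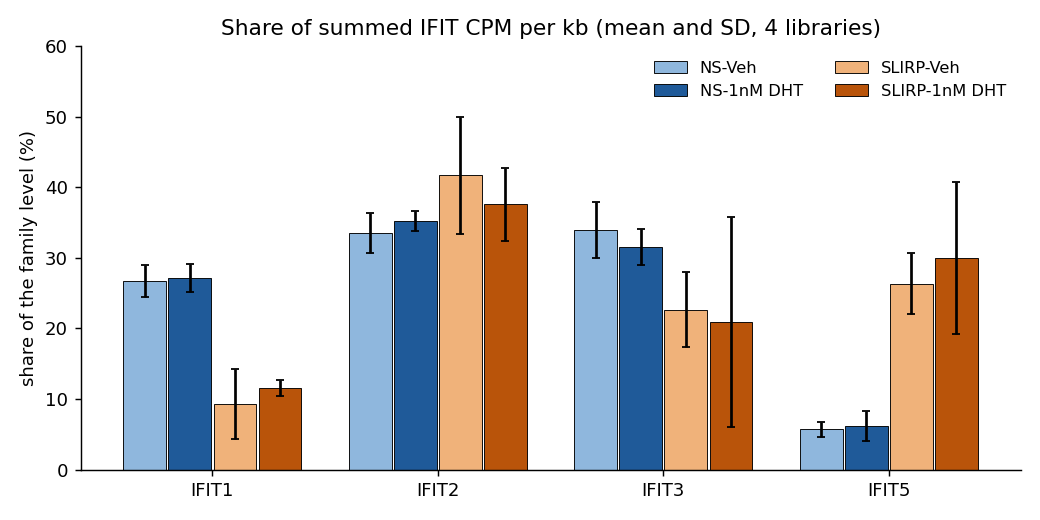
Share of each IFIT member in the summed CPM per kb of the family, in percent, as the mean of 4 libraries per group with SD bars. IFIT5 holds 5.71% in NS-Veh and 26.4% in SLIRP-Veh, while IFIT1 holds 26.7% and 9.33%.

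Whether DHT altered the effect of SLIRP siRNA on the family was tested as the change in DHT minus the change in vehicle. The estimate was below 0 for all 4 members, at -0.31 (SE 0.58) for IFIT1, -0.88 (SE 0.35) for IFIT2, -0.71 (SE 0.55) for IFIT3 and -0.53 (SE 0.39) for IFIT5 on the log2 scale. None was called, and the adjusted p was 1.00 for each (edgeR). The 95% intervals ran from -1.48 to 0.85, from -1.59 to -0.17, from -1.82 to 0.40 and from -1.30 to 0.25 in the same order. For each of the 4 members the interval held a decrease that was 2-fold deeper in DHT than in vehicle, and it did not hold one that was 2-fold shallower. Across all genes 0 of 10684 were called by edgeR, a share of 0%, and DESeq2 called 0. At an unadjusted p under 0.05, 388 genes (3.63%) passed by edgeR and 196 by DESeq2, and 1 of the 4 members, IFIT2, passed by each. The interval of IFIT2 before adjustment excluded 0, but this estimate did not pass the adjustment over all genes.

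The response to DHT itself was tested within each siRNA. In NS cells the log2 change with DHT was 0.34 (SE 0.17) for IFIT1, 0.42 (SE 0.16) for IFIT2, 0.29 (SE 0.18) for IFIT3 and 0.35 (SE 0.25) for IFIT5. The adjusted p from edgeR was 0.364, 0.178, 0.510 and 0.587, so 0 of 4 were called, where 1.31% of 10367 genes were called in either direction. IFIT2 was the 1 member with an unadjusted p under 0.05 by edgeR, as were 14.3% of all genes, and DESeq2 gave 0. In SLIRP siRNA cells the log2 change with DHT was 0.04 (SE 0.54) for IFIT1, -0.45 (SE 0.31) for IFIT2, -0.42 (SE 0.51) for IFIT3 and -0.17 (SE 0.29) for IFIT5. None was called (adjusted p 0.987, 0.520, 0.763 and 0.844 by edgeR), against 1.17% of all genes, and 0 passed at an unadjusted p under 0.05 by edgeR or DESeq2, against 15.6% of all genes by edgeR. Of the 9 prostate markers 4 rose with DHT in NS and in SLIRP siRNA cells, among them the androgen targets KLK3, KLK2 and TMPRSS2. KLK3 rose by 2.68 (SE 0.14) and 1.96 (SE 0.12) on the log2 scale with an adjusted p of 8.21e-15 and 5.77e-15 by edgeR. Of all genes, 0.849% rose with DHT in NS cells and 0.636% in SLIRP siRNA cells.

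**Figure D4:**
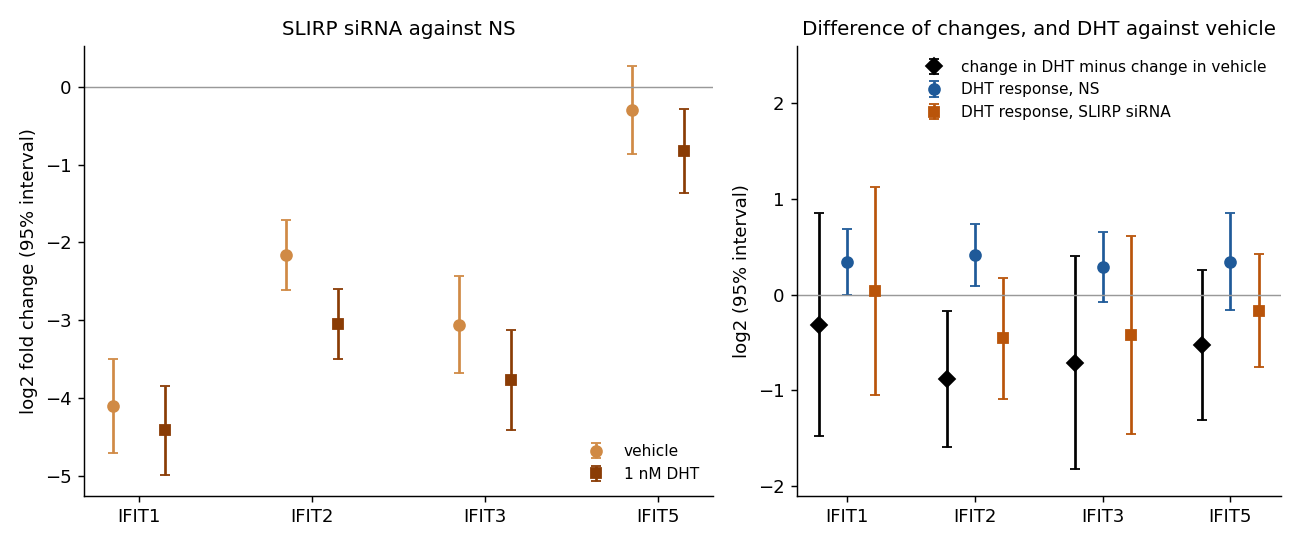
Left, log2 fold change of SLIRP siRNA against NS for each IFIT member in vehicle (circles) and 1 nM DHT (squares). Right, the change in DHT minus the change in vehicle (diamonds) and the response to DHT in NS (circles) and SLIRP siRNA cells (squares), on the log2 scale. Bars are unadjusted 95% intervals derived from edgeR's F statistic, and DESeq2 gave larger SEs for the changes on the left. IFIT1, IFIT2 and IFIT3 lie between -4.41 and -2.16 on the left and IFIT5 between -0.83 and -0.30. On the right, 0 of 4 members passed the adjustment in any of the 3 comparisons.

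The NS libraries differed among themselves in a way the members shared. NS-1nM DHT replicate 4 was the lowest of its group for 4 of 4 members and NS-Veh replicate 4 for 3 of 4. Of the 22 other interferon-stimulated genes tested, 14 were lowest in NS-1nM DHT replicate 4 and 11 in NS-Veh replicate 4, compared with 25.7% and 21.8% of all genes. IFIT1 varied 2.24-fold among the 4 NS-1nM DHT libraries and 1.69-fold among the NS-Veh libraries. SLIRP was at 57.8 CPM in NS-Veh replicate 4 and at 61.4 CPM in NS-1nM DHT replicate 4, within the range of the other NS libraries. The response to DHT in NS cells moved with these libraries. Without NS-1nM DHT replicate 4 it was 0.53 for IFIT1 and 0.58 for IFIT2 (adjusted p 0.0321 and 0.0156 by edgeR), without NS-Veh replicate 4 it was 0.15 and 0.24 (0.781 and 0.569), and without replicate 4 in all groups it was 0.35 and 0.41 (0.243 and 0.152). None of these passed an FDR of 0.01. Replicate 4 was singled out for its low member levels in NS cells. Leaving out either NS library therefore shifts the response by construction, and these adjusted p are descriptions only.

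The other genes of the interferon pathway were read from lists chosen with these results known, so their directions are not independent evidence. Calls are again those of edgeR at an FDR of 0.01, which called 11.8% of all genes higher with vehicle and 12.8% with DHT (the shares called lower are given above). Of 9 interferon genes 0 had enough counts to be tested, 6 were at 0 in every library, and IFNB1, IL28B and IL29 had at most 1, 1 and 2 counts in a library. Of the receptors, 5 of 6 were tested and 0 were called in either treatment, with a median log2 change of 0.00 in vehicle and 0.12 in DHT. IFNAR1, a chain of the type I receptor, was at 151 ± 23.8 CPM in NS-Veh and 146 ± 3.49 in SLIRP-Veh (SD, n = 4). IFNGR2 and IFNGR1, the chains of the type II receptor, were at 66.9 ± 5.73 and 26.5 ± 5.57 CPM in NS-Veh and at 56.7 ± 3.60 and 29.2 ± 5.48 in SLIRP-Veh. In DHT IFNGR2 was at 56.0 ± 8.30 CPM with NS and 40.9 ± 5.84 with SLIRP siRNA, a log2 change of -0.46 (SE 0.15) with an adjusted p of 0.0178 by edgeR, which passes an FDR of 0.05 but not 0.01.

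Among the signal transducers 8 of 10 were tested, and 3 were lower and 0 higher in both treatments, with medians of -0.30 and -0.34. IRF9 and IRF7, named after their values were seen, had log2 changes of -3.14 and -1.76 in vehicle and of -2.38 and -1.55 in DHT. STAT2 went from 59.6 ± 7.27 to 75.3 ± 11.97 CPM in vehicle (adjusted p 0.0496 by edgeR), and JAK2 from 54.4 ± 11.4 to 50.9 ± 9.32 CPM, neither called. JAK1, a kinase of the type I receptor, also named after its values were seen, had at most 9 counts in a library and was not tested.

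Of the RNA sensors and adaptors, 5 of 8 were tested, and 2 were lower in vehicle and 1 in DHT, with 0 higher. DDX58, which encodes the sensor RIG-I and was named after its values were seen, changed by -1.25 in vehicle and -1.57 in DHT on the log2 scale. EIF2AK2, which encodes the kinase PKR, fell by 0.51 in vehicle and differed by -0.18 in DHT, where it was not called. The difference between the treatments was not called (adjusted p 1.00 by edgeR). MAVS and TBK1, which relay the sensor signal, were not called, with log2 values of -0.04 and 0.41 in vehicle. Of 3 inhibitors tested out of 5, PTPN2, a phosphatase that dampens cytokine signalling, was higher, by 0.82 in vehicle and 0.92 in DHT, while USP18 (-0.43 and -0.58) and PIAS1 (0.17 and 0.20) were not called.

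The interferon-stimulated genes outside the family were lower after SLIRP siRNA in most cases. Of 26, 22 were tested, and 18 were lower in vehicle and 21 in DHT with 0 higher in either. Their median log2 change was -2.56 and -3.05, or -3.03 in DHT with the genes at 0 counts set to their bound, against -0.01 and -0.02 over all genes tested. All SLIRP siRNA libraries were below all NS libraries for 17 and 20 of them. IFI6, a mitochondrial survival protein, changed by -3.81 (SE 0.20) in vehicle and -3.66 (SE 0.20) in DHT, from 222 ± 39.0 to 14.3 ± 6.61 CPM in vehicle. ISG15, a ubiquitin-like modifier, changed by -2.35 (SE 0.16) and -2.32 (SE 0.16). PARP9, an ADP-ribosyltransferase, changed by -0.51 (SE 0.14) and -0.54 (SE 0.14). SP110, named after its values were seen, was the 1 tested gene of the list not called in either treatment. Of the 21 list genes with an entry in the promoter table, 16 (76.2%) held the response element core.

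None of the 22 was called for a difference between vehicle and DHT or for a response to DHT. In DHT minus vehicle their median was -0.27, and the 4 IFIT members lay between -0.88 and -0.31, against -0.02 over all genes. No bounds entered this median, which includes the fitted values of XAF1 and IFI27. XAF1, with 0 counts in all SLIRP siRNA libraries, has no defined difference, and IFI27 was at 0 CPM in every SLIRP-1nM DHT library. Other genes with few counts in the SLIRP siRNA libraries had large SEs, such as 1.13 for RSAD2 and 1.46 for OAS2.

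Genes of the cap and of translation initiation, with which IFIT proteins interact, were also read. Of 6 enzymes that act on the mRNA cap or on RNA 5′ ends, 0 were lower. In vehicle 1 was higher, FTSJD1, by 0.48 (SE 0.14). It was 0.18 higher in DHT without being called. RNMT and FTSJD2, cap methyltransferases, were not called, with log2 values of 0.03 and -0.07 in vehicle. Of the 13 subunits of eIF3, a translation initiation factor that IFIT1 and IFIT2 bind, 1 was lower and 3 were higher in vehicle, and 0 and 3 in DHT. EIF3E was higher by 0.29 and 0.33, EIF3A by 0.27 (not called) and 0.30, and EIF3B was not called. The 1 lower subunit was EIF3C, named after its values were seen, with 0 counts in the SLIRP-Veh libraries and 0 to 37.7 CPM in NS-Veh. EIF3C can share reads with the near-identical EIF3CL, so its value is uncertain.

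Of 10 other genes within or next to the IFIT cluster, IFIT1B among them, 4 were tested and 0 were lower. LIPA, the lysosomal lipase whose locus spans most of the cluster on the other strand, was at 110 ± 15.2 CPM in NS-Veh against 114 ± 4.24 in SLIRP-Veh, and at 130 ± 3.04 in NS-1nM DHT against 129 ± 13.6 in SLIRP-1nM DHT (SD, n = 4), a log2 change of 0.07 (SE 0.11) in vehicle and 0.01 (SE 0.10) in DHT. PANK1 was not called. KIF20B, a mitotic kinesin, rose by 1.29 (SE 0.18) and 1.14 (SE 0.17). FAS, named after its values were seen, was higher in DHT by 1.12.

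**Figure D5:**
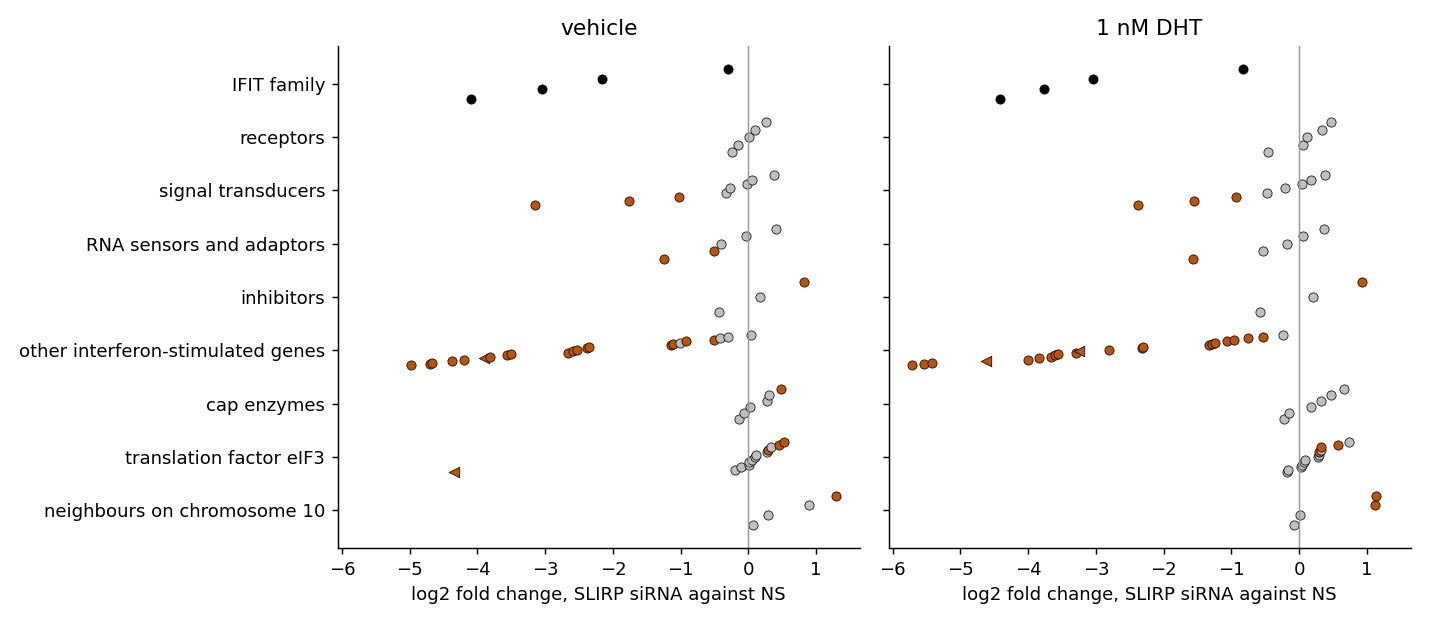
Log2 fold change of SLIRP siRNA against NS in vehicle (left) and in 1 nM DHT (right) for the 4 IFIT members (black) and the genes tested of each list, 1 point a gene. Orange points passed an FDR of 0.01 by edgeR and grey points did not, and a triangle marks a gene with 0 counts in the SLIRP siRNA group, placed at its bound. The interferon-stimulated genes spread to the left, with 18 and 21 of 22 called lower, while 0 of 5 receptors were called.

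The genes whose profile over the 16 libraries lay nearest to that of the family were found from the root mean square difference (RMS) of centred log2 CPM to the mean of the 4 members. The nearest 8 genes outside the family were DDX60 (0.296), ISG15 (0.314), HERC5 (0.337), PSAT1 (0.367), XAF1 (0.368), IFI27 (0.380), OAS1 (0.399) and CLDN12 (0.401), and the median over all genes was 1.32. Of these, 6 were on the interferon list, and PSAT1, an enzyme of serine synthesis, and CLDN12, a claudin, were not. PSAT1 was at 309 and 269 CPM in NS-Veh and NS-1nM DHT and at 57.4 and 64.5 CPM in SLIRP-Veh and SLIRP-1nM DHT. XAF1 had 0 counts in all SLIRP siRNA libraries and was at least 14.96-fold lower in vehicle and at least 24.7-fold lower in DHT, taking 3 counts over the group as the floor.

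The members themselves lay at 0.203 for IFIT2, 0.476 for IFIT3, 0.707 for IFIT1 and 1.03 for IFIT5 from their own mean. Of the 8 genes nearest to IFIT1, 7 were on the interferon list and the other was IFIT3. Of the 8 nearest to IFIT5, 0 were on the list and 0 were members. These distances use the contrast on which the members were chosen, and they describe the profiles only.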

How the data were processed

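LNCaP RNA was measured in 16 libraries. The authors aligned reads to hg19 and deposited estimated counts (RSEM, from the submitters' processing notes, with CASAVA), rounded to whole numbers. Versions, annotation and strand handling are not given in the sources used here. The deposited normalized table, a score for 13148 genes, is the counts divided by the library's upper quartile and rescaled, and served only an alternative. Groups come from the sample labels. The members and lists were chosen with earlier results of these data known. Estimated counts were tested with edgeR 4.0.16 in R 4.3.3 (TMM, filterByExpr, glmQLFit and glmQLFTest, Benjamini-Hochberg over all genes, FDR 0.01) in a 4-group model of 16 libraries. SLIRP siRNA with treatments pooled had 8 libraries a side, and DHT in NS cells used the 8 NS libraries. A prior count of 2 went into log2 CPM. The scripts were tested on simulated data.

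The methods name 2 biological replicates in each of 2 experiments, but not which numbers belong to which. Replicates differed by more than counting error (chi-square per degree of freedom 1.21 to 2.26). Replicates 1 and 2 (1.23 and 1.21) and replicates 3 and 4 (1.37 and 1.29) were the closest pairs in NS-Veh and NS-1nM DHT. The same pairs were at 1.88 and 1.21 in SLIRP-Veh and at 1.52 and 1.74 in SLIRP-1nM DHT. Whether these pairs are the experiments was not tested. The main models hold no term for experiment, so SDs and tests treat the 4 libraries of a group as independent. The alternatives were DESeq2 1.42.0, RLE and upper-quartile scaling, no filter, at least 10 counts in every library, the replicate block, an FDR of 0.05, limma 3.58.1 on the normalized table (pseudocounts 1 and 0.1), other sets of groups, treatment as a covariate and leaving out each library. Leaving out each replicate number was added after seeing the data. Named genes were the members, the 3 tested genes of highest mean CPM in each list, list genes called for DHT or its difference, the 8 nearest profiles and SLIRP, and some genes this rule chooses are not reported here by name but remain in the counts. Transcripts come from GENCODE v44 on hg19, and promoters of GRCh38.p14 were placed on hg19 by exact match. Figures used matplotlib 3.10.9, with numpy 2.4.6 and pandas 2.3.3 in Python 3.11.15.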

Additional observations from a re-analysis of the deposited data

Results flagged for a closer look

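The 16 sets of 4 libraries (4 members in 4 groups) were each examined for a library whose gap to the nearest other library, over the range of the set, was above Dixon's 95% critical value for 4 samples. Chance passes about 1 set in 20, and 2 of the 16 did. IFIT2 in NS-Veh replicate 4 was at 66.6 CPM, below 102 to 105 CPM in the other 3 libraries, with a gap of 0.922 of the range. IFIT3 in SLIRP-1nM DHT replicate 2 was at 15.5 CPM, above 2.41 to 3.91 CPM in the others, with a gap of 0.886 of the range.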

How the results depend on the processing

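The 4 members were lower after SLIRP siRNA in vehicle, in DHT and with both together in all 116 values of each comparison. The members were chosen on that contrast, so its direction is a description only. The change in DHT minus that in vehicle was below 0 in all 112 values, with 0 called. DHT against vehicle in NS was above 0 in 87 of 87 with 0 called. These values, over members and settings, are refits of the same 16 libraries and are not independent. In DHT, and with treatments together, 4 instead of 3 members were called lower under the replicate block and at an FDR of 0.05, and without NS-1nM DHT replicate 4. The same held without NS-1nM DHT replicate 2 in DHT, and without NS-Veh replicate 2, NS-Veh replicate 4 or replicate number 4 with treatments together. The response of IFIT1 to DHT in SLIRP siRNA cells changed sign in 4 cases, at -0.05 without SLIRP-1nM DHT replicate 2, -0.06 without SLIRP-Veh replicate 2, -0.06 without SLIRP-Veh replicate 4 and -0.15 without replicate 2, and that of IFIT3 was 0.14 without replicate 4. Leaving out libraries or replicate numbers put that response between -0.15 and 0.20 for IFIT1 and between -1.18 and 0.14 for IFIT3. The cause was not tested. For DHT in NS cells the ranges were 0.15 to 0.53, 0.24 to 0.58, 0.11 to 0.43 and 0.14 to 0.48 for IFIT1, IFIT2, IFIT3 and IFIT5. Leaving out libraries or replicate numbers moved the difference between treatments to between -0.48 and -0.11 for IFIT1, -1.21 and -0.47 for IFIT2, -1.47 and -0.11 for IFIT3 and -0.68 and -0.29 for IFIT5.

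The rule used for pairing, that every same-numbered pair correlate above 0.1, was not met, so the main models hold no replicate term. Missing this cutoff does not show that the samples were unpaired. The mean correlation of same-numbered deviations was 0.137 between the NS groups, 0.0963 between the SLIRP siRNA groups, and 0.0287 and 0.0929 between siRNAs in vehicle and DHT, with some pairs below 0.1 in each, although 3 of 4 pairs between the NS groups were above it. Of 8 samples, 5 correlated best with their own number between the NS groups and 3 between the SLIRP siRNA groups. Between the siRNAs it was 3 of 8 in vehicle and 5 of 8 in DHT. Every same-numbered correlation was positive, the lowest at 0.00011 between the SLIRP siRNA groups. All 4 same-numbered NS pairs were higher with DHT for each of the 4 members. In SLIRP siRNA cells it was 2 of 4 pairs for IFIT1 and 1 of 4 each for IFIT2, IFIT3 and IFIT5. The members share these libraries and are not replicates of each other, and no share over all genes is given here. With the replicate block the difference between treatments was -0.19, -0.75, -0.52 and -0.59 for IFIT1, IFIT2, IFIT3 and IFIT5, and 0 members were called. The response to DHT in NS cells was then 0.29, 0.34, 0.19 and 0.41 (adjusted p 0.150, 0.0731, 0.513 and 0.391 by edgeR). The block called IFIT5 lower in DHT.

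Over all genes, 136 were called for DHT in NS cells. DESeq2 called 89, no filter 236, the block 270, an FDR of 0.05 272 and limma 27 or 17 (pseudocounts 1 and 0.1). For DHT in SLIRP siRNA cells 125 were called, against 220, 309, 62 and 48 with no filter, an FDR of 0.05 and the 2 limma fits. For the difference, 0 became 11 with no filter and 1 without NS-1nM DHT replicate 2. A minimum of 10 counts in every library left no member to test. At 2 to 10 counts of IFIT1 per SLIRP siRNA library, depth limits its level there to counting error.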
